A study of Rattus norvegicus with 4 samples.

Results

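The steroid hormone receptors listed for this account were the estrogen receptor genes Esr1 and Esr2, the progesterone receptor gene Pgr, the glucocorticoid receptor gene Nr3c1 and the mineralocorticoid receptor gene Nr3c2. They were looked up by symbol among the 32883 genes of the deposited tables, and 4 of the 5 were found. Nr3c1 was not found under that symbol and is not analysed here. The measurements were UMI counts, which count RNA molecules tagged before amplification, in single nuclei of the rat ventral tegmental area. This midbrain region holds dopamine neurons among GABA neurons, glutamate neurons and glia. The 4 libraries were Female 1, Female 2, Male 1 and Male 2, each made from pooled tissue of 3 Sprague-Dawley rats aged 90 to 120 days, which had received no experimental treatment. Pooling means that the library was the replicate and that animals within it could not be separated, and no estrous stage is given. A coronal block from -4.92 to -6.46 mm relative to bregma was microdissected, and nuclei stained with 7-AAD were sorted before library preparation.

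Steroid hormone receptors are transcription factors that sit with chaperones such as the heat shock protein Hsp90 until a steroid binds them, and then act at response elements in DNA. Esr1 and Esr2 encode the estrogen receptors alpha and beta, Pgr is a textbook target of estrogen receptors, and Nr3c2 binds aldosterone and, in most of the brain, corticosterone. In the midbrain, ovarian steroids and corticosterone are known to affect dopamine neuron activity and reward behaviour.

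Nuclei were sorted into 9 groups by raw UMIs of a few defining genes, called gates here. Dopamine nuclei held at least 2 UMIs each of Th and Slc6a3 (289 nuclei used), and a second gate required at least 2 UMIs each of Slc26a7 and Gad2 (82 nuclei). GABA nuclei held at least 2 UMIs of Gad1 and were divided into those with a UMI of the transcription factor gene Isl1 (83 nuclei) and those without (1049 nuclei). Glutamate nuclei held at least 2 UMIs of Slc17a6 and none of Gad1 (1528 nuclei). Glial gates were oligodendrocytes with Mog and Mobp (8512 nuclei), oligodendrocyte precursors with at least 2 UMIs of Pdgfra (1334 nuclei), astrocytes with Gja1 and Aqp4 (1851 nuclei) and microglia with Csf1r and C1qa (926 nuclei). Of 20620 nuclei kept, 15654 fell in a single gate after overlaps were settled, and 4813 were in none. Levels are UMIs of a gene per 1000000 UMIs summed over the nuclei of a gate in a library (CPM).

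The gates were checked against marker genes that did not define them. Summed dopamine markers other than the gate genes stood at 2155 to 2610 CPM in the dopamine gate and at most 115.6 CPM in the glutamate gate, but reached 875 to 1118 CPM in the gate of Slc26a7 with Gad2. The short lists for GABA and glutamate neurons separated less, with summed GABA markers at 574 to 707 CPM in GABA nuclei without Isl1 and 468 to 689 CPM in astrocytes, and summed glutamate markers at 871 to 952 CPM in glutamate nuclei and 1129 to 1341 CPM in dopamine nuclei. In the Isl1 gate, summed GABA markers were 174 CPM in Male 1 and 47.0 in Male 2, below the other GABA nuclei, and summed dopamine markers were 153 and 345 CPM, so beyond Gad1 the gate's name was weakly marked. Summed microglial markers stood at 2843 to 3013 CPM in the microglia gate, where summed astrocyte markers also reached 1160 to 1959 CPM. The Isl1 gate held 60 nuclei from Male 1, 10 from Male 2, 9 from Female 1 and 4 from Female 2, so sums of at least 10 nuclei came from the male libraries alone. In those 2 libraries Hdc, which makes histamine, stood at 331 and 2164 CPM and the neuropeptide gene Gal at 170 and 282 CPM, listed from low to high, while Hcrt, Foxb1 and Sim1 were at 0. Hdc and Gal belong to a list of genes of neighbouring hypothalamic neurons, and their part in the results of the Isl1 gate was not tested. The sex labels were checked with Eif2s3y, a Y-linked gene, which was at 0 UMIs in the females and at 1722 and 2156 UMIs in Male 1 and Male 2. Library totals were 19714338 to 25824289 UMIs, and 36 barcodes occurred in more than 1 library.

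RefSeq promoter windows of 300 bases, from 250 before to 50 after the transcript start, were held for Esr1, Esr2 and Pgr. They are shown because Pgr is a known estrogen receptor target and because the 3 genes had different patterns across the gates. The build is GRCr8, whereas the counts were made on rn6 per the submitters' processing notes. The Esr1 window is chr1:43641845-43642144 on the plus strand, the Esr2 window is chr6:100644660-100644959 on the minus strand and the Pgr window is chr8:14354148-14354447 on the plus strand. Capitals mark a GC box, and all are written 5′ to 3′ along the gene.
Esr1: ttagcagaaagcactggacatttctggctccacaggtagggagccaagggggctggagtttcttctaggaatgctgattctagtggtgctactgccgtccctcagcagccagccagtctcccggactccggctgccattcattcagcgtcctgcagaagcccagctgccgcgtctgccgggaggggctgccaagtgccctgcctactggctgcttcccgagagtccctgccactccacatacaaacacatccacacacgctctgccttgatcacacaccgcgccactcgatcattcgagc
Esr2: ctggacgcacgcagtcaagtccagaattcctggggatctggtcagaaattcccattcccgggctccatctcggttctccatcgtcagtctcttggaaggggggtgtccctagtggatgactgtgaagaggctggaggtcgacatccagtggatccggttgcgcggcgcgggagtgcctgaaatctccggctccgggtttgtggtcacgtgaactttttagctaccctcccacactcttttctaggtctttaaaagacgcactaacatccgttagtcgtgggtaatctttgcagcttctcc
Pgr: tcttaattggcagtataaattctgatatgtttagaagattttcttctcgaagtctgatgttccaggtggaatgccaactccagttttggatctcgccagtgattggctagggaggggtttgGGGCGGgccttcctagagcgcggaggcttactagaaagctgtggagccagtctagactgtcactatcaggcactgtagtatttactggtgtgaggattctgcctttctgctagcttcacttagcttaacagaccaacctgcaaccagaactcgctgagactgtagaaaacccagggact
The motifs searched on both strands were AGGTCA (an estrogen response hexamer), the full estrogen response element (which overlaps that hexamer), the full glucocorticoid response element, ACAAAG (the SOX core) and GGGCGG (the GC box). The GC box in the Pgr window was the single match in the 3 windows, and 33.1% of 33469 RefSeq windows of the same length held one. AGGTCA was in 16.2% of those windows, ACAAAG in 18.8%, the full estrogen response element in 9 windows and the full glucocorticoid element in 5. The windows were 59.7% GC for Esr1, 54.7% for Esr2 and 47.7% for Pgr, against a median of 51.7% over all windows.

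Esr1 was an astrocyte-weighted gene in this tissue. Values are given for Female 1, Female 2, Male 1 and Male 2 in that order here and in the following paragraphs. The astrocyte gate gave 131.6, 137.8, 141.9 and 141.5 CPM, a mean of 138.2 ± 4.76 CPM (SD, n = 4 libraries). These 1851 nuclei held 930 of the 2362 Esr1 UMIs of all kept nuclei (39.4%). The 4813 nuclei in no gate, whose cell types were not assigned, held 589 (24.9%), at 26.5 to 44.3 CPM by library. In GABA nuclei without Isl1 the level was 28.9, 24.3, 29.1 and 32.1 CPM, and in glutamate nuclei 14.1, 23.7, 24.0 and 23.1 CPM. Dopamine nuclei gave 14.4, 6.90, 9.22 and 9.75 CPM. Every library of the astrocyte gate lay far above every library of the other gates with 4 libraries. The dopamine gate lay below the GABA gate without overlap. Here and below, the share of all genes without overlap between 2 gates was not counted, so such an order is a description. Precursors stood at 16.1 CPM and the Slc26a7 gate at 13.1 on average. Oligodendrocytes gave 4.36 to 6.21 CPM. Microglia gave 24.3, 0, 7.30 and 5.17 CPM, so their mean of 9.18 rests on Female 1 and their place beside oligodendrocytes is not settled.

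In the order of Esr1 levels, several neighbours could not be separated beyond their spread. Pairs of gates were tested with edgeR's quasi-likelihood test with library as a block, and a gene passed at an adjusted p under 0.05 over the 13080 genes tested. Astrocytes were above the Isl1 gate (adjusted p = 6.1e-06; 40.3% of all genes passed), which was next in the fit and was above GABA nuclei without Isl1 (adjusted p = 0.0485; 8.64%). That place rests on Male 1, since the Isl1 gate gave 75.7 CPM in Male 1 and 0 in Male 2. Against GABA nuclei the fitted direction reversed without Male 1, when the gate was 10 nuclei of Male 2 with no Esr1 UMI. The call was lost with DESeq2 and with stricter gates. From GABA down to oligodendrocytes no neighbouring pair passed, with edgeR adjusted p-values from 0.0903 for GABA against glutamate to 0.89 for dopamine against microglia.

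Esr2 had its highest level in oligodendrocytes, the myelin-forming glia. Their level was 52.5, 51.1, 44.9 and 33.5 CPM, and the gate held 1078 of 1564 Esr2 UMIs (68.9%). Dopamine nuclei came next among the gates with 4 libraries, at 10.1, 16.6, 22.4 and 16.7 CPM, beside astrocytes at 20.1, 22.6, 11.4 and 11.7 CPM. The Isl1 gate gave 17.0 CPM in Male 1 and 47.0 CPM in Male 2, the latter from 3 UMIs. The dopamine and astrocyte ranges overlapped, and all libraries of these 2 gates lay below all libraries of the oligodendrocyte gate. GABA nuclei without Isl1 averaged 8.95 CPM, glutamate nuclei 3.81 CPM and precursors 0.68 CPM, the last from 3 UMIs. Microglia had no Esr2 UMI, and 3 UMIs over that gate would be 2.15 CPM. Against that floor Esr2 was at least 21.2-fold higher in oligodendrocytes and at least 7.65-fold higher in dopamine nuclei.

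In the order of Esr2 levels, oligodendrocytes were above the Isl1 gate (edgeR adjusted p = 0.00115; 46.8% of all genes passed), and the Isl1 gate, dopamine nuclei and astrocytes were not separated from each other in order (adjusted p = 0.927 and 0.449). Astrocytes were above GABA nuclei (adjusted p = 4.1e-05; 67.4% of genes), and GABA nuclei were above glutamate nuclei (adjusted p = 0.00375; 12.9% of genes). Below these no neighbours passed.

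Pgr was a gene of neurons here and, among gates with 4 libraries, was highest in the dopamine gate. The Isl1 gate gave 102.1 CPM in Male 1 and 0 in Male 2. Dopamine nuclei gave 59.0, 77.3, 75.1 and 78.0 CPM. GABA nuclei without Isl1 gave 45.8, 49.8, 37.5 and 39.7 CPM, glutamate nuclei 44.3, 43.1, 39.3 and 36.9 CPM, and the Slc26a7 gate 40.1, 33.5, 40.8 and 52.0 CPM. Each library of the dopamine gate was above each library of these neuron gates. Nuclei in no gate held 574 of all 1887 Pgr UMIs (30.4%), at 28.0 to 31.5 CPM by library. In glia the mean level was 1.52 CPM in microglia, 0.81 in oligodendrocytes and 0.72 in astrocytes. No Pgr UMI was found in precursors, where 3 UMIs would be 0.727 CPM. Against that floor Pgr was at least 99.5-fold higher in dopamine nuclei, 59.4-fold in GABA nuclei without Isl1, 57.2-fold in the Slc26a7 gate and 56.2-fold in glutamate nuclei.

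In the order of Pgr levels, dopamine nuclei and the Isl1 gate were not separated (edgeR adjusted p = 0.802), and the Isl1 gate was above GABA nuclei without Isl1 (adjusted p = 0.0221; 8.64% of all genes passed). The latter call also rests on Male 1 and was lost with DESeq2 and with stricter gates. Its fitted direction reversed without Male 1, when the gate was 10 nuclei of Male 2 with no Pgr UMI. GABA, Slc26a7 and glutamate nuclei were not separated in that order (adjusted p = 0.915 and 0.975). Glutamate nuclei, the lowest neuron gate, were above microglia (adjusted p = 3.4e-09; 66.1% of all genes passed), the glial gate with the highest mean (6.06 CPM in Female 1 and 0 in the other libraries).

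Nr3c2 was detected in every gate, with its highest level in astrocytes and its lowest neuronal level among gates with 4 libraries in dopamine nuclei. Astrocytes gave 584.8, 661.5, 475.6 and 669.2 CPM. Glutamate nuclei gave 284.8, 312.6, 276.0 and 297.8 CPM, the Slc26a7 gate 260.8, 234.7, 343.0 and 277.1 CPM, and GABA nuclei without Isl1 287.7, 280.3, 230.5 and 280.5 CPM. Dopamine nuclei gave 103.6, 128.3, 100.1 and 104.5 CPM, below every library of those 3 neuron gates. Oligodendrocytes gave 120.9, 154.2, 104.4 and 137.0 CPM, and the Isl1 gate gave 191.0 CPM in Male 1 and 62.7 CPM in Male 2. Precursors averaged 182.8 CPM and microglia 48.2 CPM, with 29.2 CPM in Male 1 as the lowest value.

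In the order of Nr3c2 levels, astrocytes were above glutamate nuclei (edgeR adjusted p = 1.5e-17; 68.2% of all genes passed), and glutamate, Slc26a7 and GABA nuclei were not separated in that order (adjusted p = 0.547 and 0.898). GABA nuclei were above precursors (adjusted p = 0.00177; 55.8% of genes), and precursors above oligodendrocytes (adjusted p = 0.0339; 60.6%). Oligodendrocytes and the Isl1 gate were not separated (edgeR adjusted p = 0.71), nor were the Isl1 gate and dopamine nuclei (adjusted p = 0.0712). Dopamine nuclei were below oligodendrocytes in the fit, with a log2 fold change of -0.58 ± 0.13 (edgeR adjusted p = 1.5e-04; 68.1% of genes), and above microglia (adjusted p = 1.6e-04; 61.1%). That fold change is on TMM-scaled counts. By CPM, dopamine nuclei and oligodendrocytes averaged 109.1 and 129.1 with overlapping library ranges, and their detection at equal depth was 18.5% and 19.3%.

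**Figure D1:**
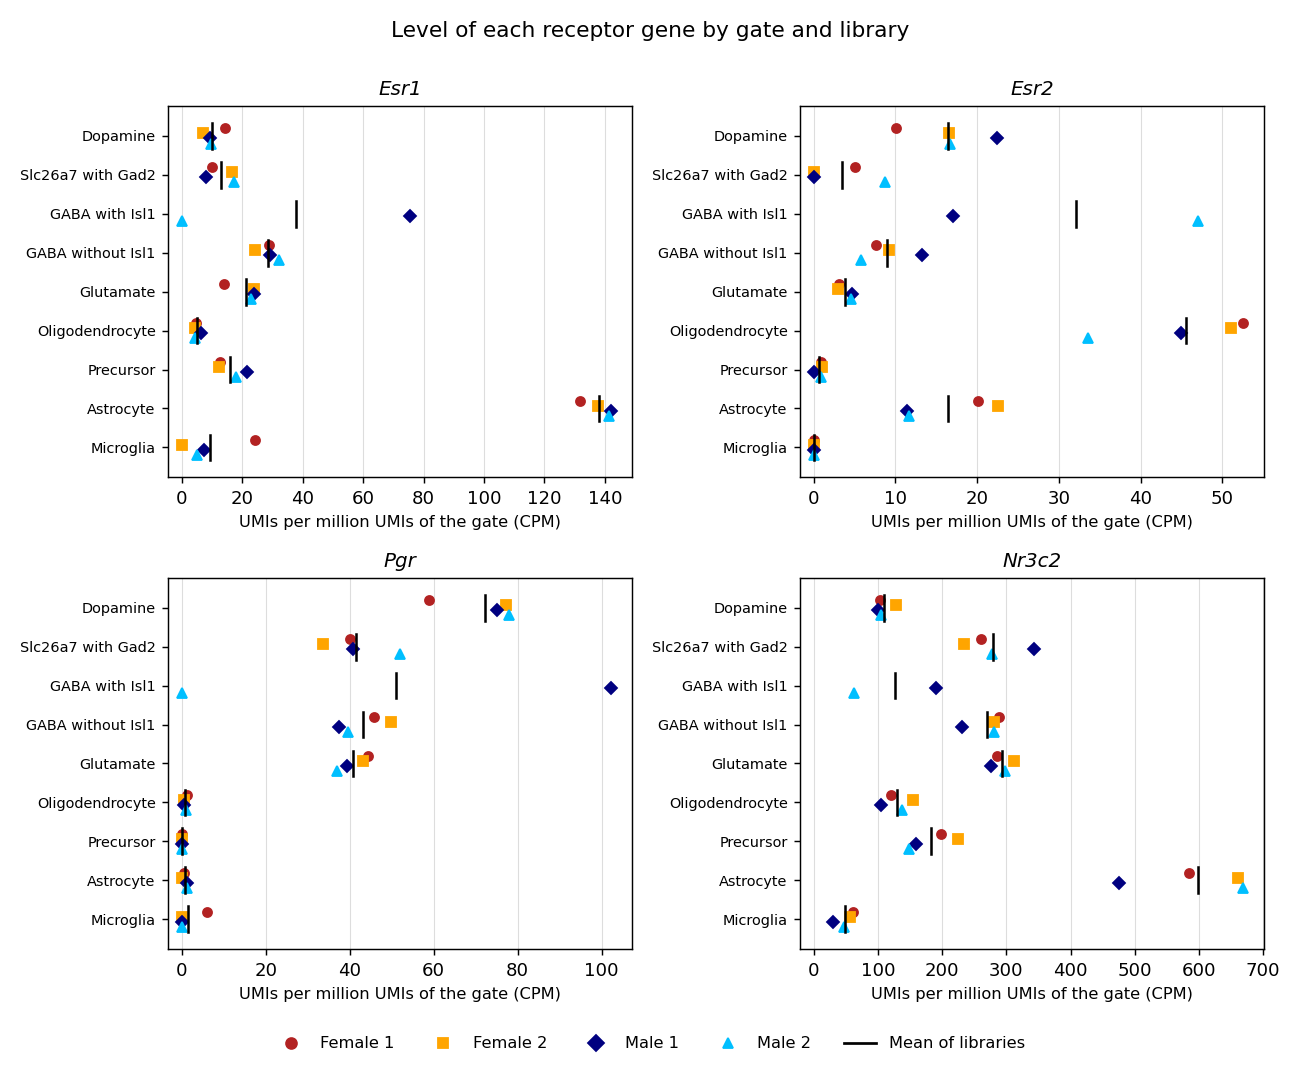
Level of each receptor gene (x axis, CPM on a linear scale that differs between panels) in each gate (y axis), with a symbol per library and a vertical line at the mean; sums of fewer than 10 nuclei are not drawn. Esr1 and Nr3c2 lie farthest right in astrocytes, Esr2 in oligodendrocytes and Pgr in neurons, and the 2 libraries of the Isl1 gate stand far apart.

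Depth per nucleus differed between gates, with median UMIs of 8888 in dopamine nuclei and 2400 in oligodendrocytes, so detection was also compared with each nucleus thinned to 2000 UMIs. At that depth an Esr1 UMI was expected in 19.9% ± 1.29 (SD, n = 4 libraries) of astrocytes, 4.71% of GABA nuclei without Isl1, 3.99% of glutamate nuclei and 1.86% of dopamine nuclei. Oligodendrocytes gave 0.969% and microglia 0.470%, the latter from Male 1 alone (1.88%). These were the lowest shares, and the part of free RNA in them was not measured. Before thinning the shares were 28.0% in astrocytes and 9.47% in dopamine nuclei. For Esr2 the thinned share was 8.18% ± 1.46 in oligodendrocytes, 3.14% in dopamine nuclei, 2.89% in astrocytes and 0.155% in precursors. For Pgr it was 12.6% ± 0.614 in dopamine nuclei, 7.83% in GABA nuclei without Isl1, 7.71% in the Slc26a7 gate, 7.36% in glutamate nuclei and 0.0931% in oligodendrocytes. For Nr3c2 it was 61.5% ± 5.34 in astrocytes, 38.3% in glutamate nuclei, 19.3% in oligodendrocytes, 18.5% in dopamine nuclei and 11.5% in microglia. Thinning left out shallower nuclei, among them 3065 oligodendrocytes and 749 of 926 microglia. The thinned microglial shares therefore cover only the deeper nuclei of that gate. Over all its nuclei before thinning, the Nr3c2 share in microglia was 5.70%.

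**Figure D2:**
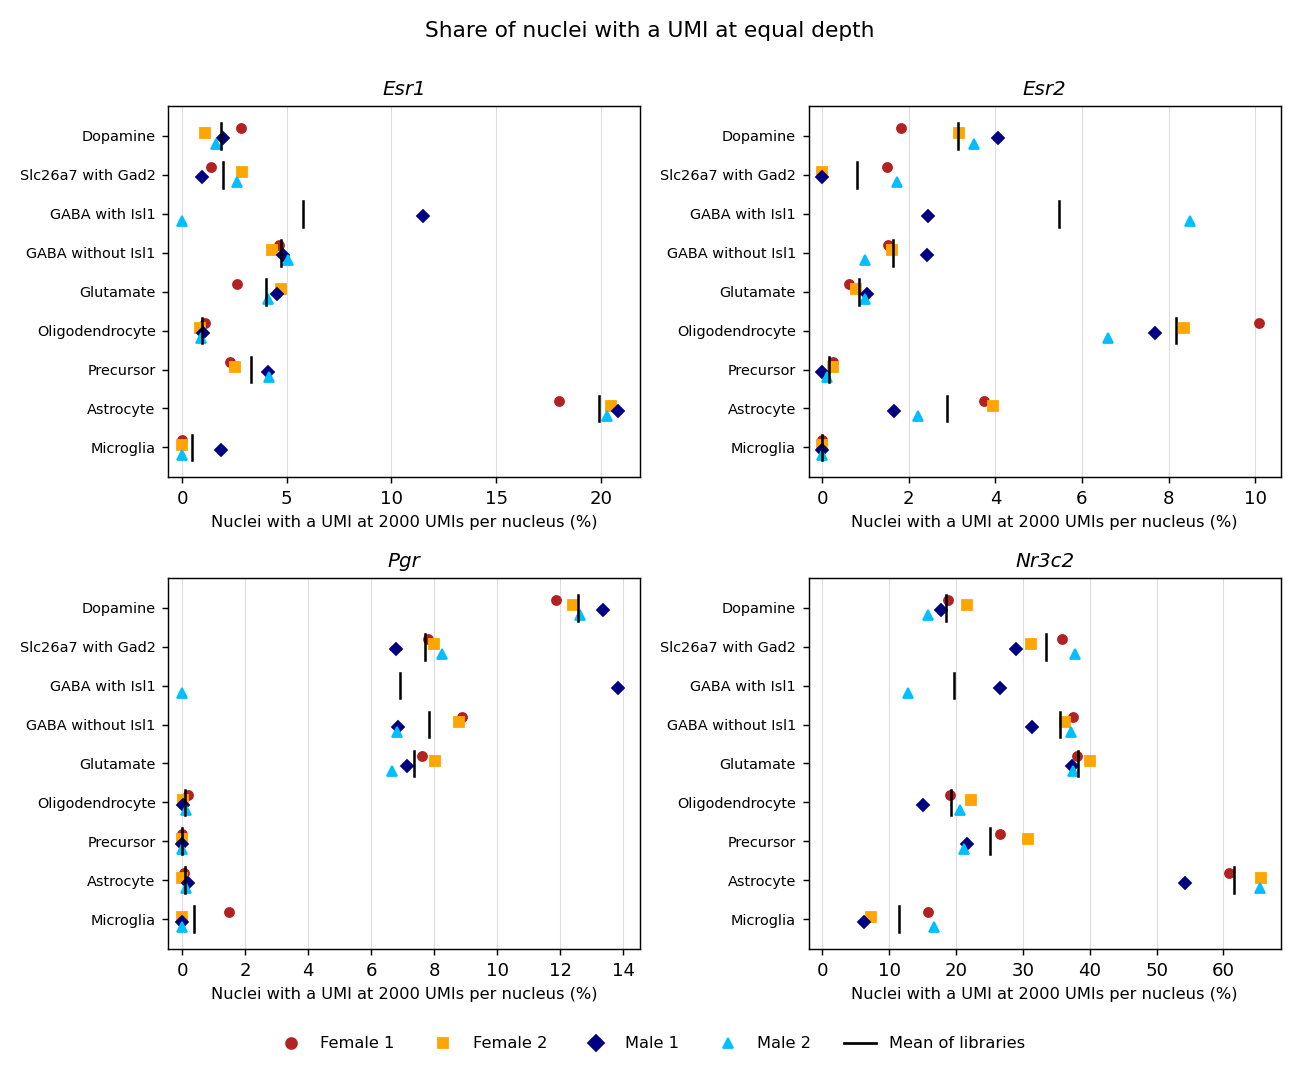
Share of nuclei expected to hold a UMI of each receptor gene when every nucleus is thinned to 2000 UMIs (x axis, %), by gate (y axis), with a symbol per library and a line at the mean. The gate with the highest share is the astrocyte gate for Esr1 and Nr3c2, the oligodendrocyte gate for Esr2 and the dopamine gate for Pgr.

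Dopamine nuclei differed from GABA nuclei without Isl1 in every receptor measured. Esr2 and Pgr were higher in dopamine nuclei, by 0.92 ± 0.31 (SE) and 0.79 ± 0.17 on the log2 scale (edgeR adjusted p = 0.0204 and 1.7e-04). Esr1 and Nr3c2 were lower, with log2 fold changes of -1.46 ± 0.30 and -1.26 ± 0.13 (adjusted p = 1.3e-04 and 3.0e-11). All 4 receptors passed, against 28.7% of the 13080 genes tested. The Esr2 call was lost without Female 2 or Male 2 (adjusted p = 0.0519 and 0.0941). With library as a block, p-values between gates or splits measure how much those differences varied among these libraries of pooled animals. For the gates, that spread was estimated over all gates together. P-values between sexes, fitted without a block, measure the spread between libraries.

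Against glutamate nuclei the same directions were found. The log2 fold changes in dopamine nuclei were 2.04 ± 0.34 for Esr2 and 0.86 ± 0.16 for Pgr (edgeR adjusted p = 4.0e-06 and 3.5e-05), and -1.03 ± 0.31 for Esr1 and -1.40 ± 0.13 for Nr3c2 (adjusted p = 0.0101 and 7.0e-13). All 4 passed, against 22.6% of genes tested. The Esr1 call was lost without Female 2, Male 1 or Male 2 (adjusted p = 0.0690, 0.0559 and 0.0600). The comparisons with GABA and glutamate nuclei share their dopamine sums.

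Against the Slc26a7 gate, whose nuclei also carried dopamine markers, Pgr was higher in dopamine nuclei by 0.89 ± 0.31 and Nr3c2 was lower, with a log2 fold change of -1.20 ± 0.19 (edgeR adjusted p = 0.0435 and 3.1e-06). Those 2 of 4 passed, against 14.2% of genes. Esr2 had a log2 fold change of 2.09 ± 0.76 (adjusted p = 0.0581) and Esr1 of -0.34 ± 0.63 (adjusted p = 0.821). The Pgr call was lost when any single library was left out (adjusted p = 0.0682 to 0.170), with DESeq2 (adjusted p = 0.164) and with looser gates (adjusted p = 0.108). Fewer than 2 receptors also passed with DESeq2's size factors in edgeR, without the block, with doublet calls kept and with overlaps kept.

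The Isl1 gate had more Esr1 and Pgr than the other GABA nuclei in the fit, and this rested on Male 1. The log2 fold changes were 1.01 ± 0.34 for Esr1 and 1.00 ± 0.29 for Pgr (edgeR adjusted p = 0.0485 and 0.0221), and 2 of 4 receptors passed against 8.64% of genes. In Male 1 the level was 75.7 CPM for Esr1 (95% exact Poisson interval 54.1 to 103.0, counting error only) and 102.1 CPM for Pgr. Male 2 had no UMI of either gene in its 10 nuclei, where 3 UMIs would be 47.0 CPM. Without Male 1 the gate was Male 2 alone, and the fitted log2 fold changes were -8.68 for Esr1 and -9.17 for Pgr. These values depend on the empty sums and are no bound. The 95% upper limit for 0 UMIs in Male 2 was 57.8 CPM. That lies above the mean levels in GABA nuclei without Isl1, 28.6 CPM for Esr1 and 43.2 CPM for Pgr. In Male 1, 16 of 60 nuclei held an Esr1 UMI, 21 a Pgr UMI and 6 both. In Female 1, 4 of 9 nuclei held an Esr1 UMI and 1 a Pgr UMI. The female sums were too small for the fit. Esr1 there was at 105.6 CPM in Female 1 (10 UMIs, 95% exact Poisson interval 50.6 to 194.2). In Female 2 it was at 51.8 CPM (2 UMIs in 4 nuclei). Pgr was at 21.1 CPM in Female 1 (2 UMIs) and at 0 in Female 2. The call for Esr1, the call for Pgr or both were also lost with DESeq2, with stricter gates, without the block, without Female 2, with doublet calls kept and with overlapping nuclei kept.

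Averaged over gates, neurons exceeded glia in Pgr. The log2 fold change was 6.46 ± 0.29 (edgeR adjusted p = 5.5e-25), a fitted value that depends on the near-empty glial sums and is no bound. Esr2 had a log2 fold change of 1.53 ± 0.67 (adjusted p = 0.0403) although its highest level was in oligodendrocytes, since the mean over glial gates includes precursors and microglia at or near 0. Thus 2 of 4 receptors passed, against 67.1% of genes, with Esr1 at 0.06 (adjusted p = 0.838) and Nr3c2 at 0.14 ± 0.09 (adjusted p = 0.148). With the Isl1 gate left out, which was tried after the data had been seen, Esr2 was at 1.27 (adjusted p = 0.116) and no longer passed, while Nr3c2 at 0.20 passed (adjusted p = 0.0155). Without Male 1 the Isl1 gate rested on Male 2 alone, and Pgr was at 4.37 (adjusted p = 1.00). Without Male 1 and the Isl1 gate together, Pgr passed again. The Esr2 call was also lost with DESeq2 (adjusted p = 0.0532) and without Female 1, Male 1 or Male 2 (adjusted p = 0.0505 to 0.258).

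Between the glial gates with the highest estrogen receptor levels, Esr1 was higher in astrocytes by 4.71 ± 0.15 on the log2 scale and Esr2 lower, with a log2 fold change of -1.53 ± 0.16 (edgeR adjusted p = 1.7e-32 and 1.2e-11). Nr3c2 was higher in astrocytes by 2.12 ± 0.10 (adjusted p = 7.3e-26). These 3 of 4 passed, against 64.2% of genes, and Pgr, near its floor in both gates, was at -0.18 ± 0.77 (adjusted p = 0.852).

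Within a gate, nuclei with a UMI of a second gene were compared with nuclei without one, in 18 splits chosen after the data had been seen. Of 50 tests 16 passed, and 0.341% to 23.8% of all genes passed per split. For 7 of the 16, the call held with DESeq2 and with each library left out, and these are described next.

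Among oligodendrocytes, Esr2 was higher in nuclei with Hapln2 or Klk6 and lower in nuclei with Opalin, all known as oligodendrocyte genes. In the 7011 nuclei with a Hapln2 UMI, Esr2 averaged 52.1 (37.5 to 61.3) CPM, and in the 1501 without one 16.3 (7.67 to 23.3) CPM (log2 fold change 1.55 ± 0.19, edgeR adjusted p = 3.0e-07; 23.8% of genes passed). Every library with Hapln2 was above every library without it, an order not counted over all genes. With Klk6, 4300 nuclei averaged 58.9 (44 to 69) CPM and the other 4212 averaged 28.3 (20.3 to 36.1) CPM (0.97 ± 0.10, adjusted p = 5.3e-08; 21.4% of genes passed). By Opalin the direction was opposite. Esr2 was 30.4 to 45.4 CPM in 5769 nuclei with Opalin and 41.9 to 78.7 CPM in 2743 without (-0.64 ± 0.12, adjusted p = 9.5e-04; 22.3% of genes passed). By Grm3 it was also lower (-0.76 ± 0.17), in a call that did not hold under all alternatives. By Cdh19 it was not separated (0.0047 ± 0.10, edgeR adjusted p = 0.990; 8.14% of genes passed). Mean UMIs per nucleus were close in the Hapln2 split, 2750 with and 2886 without, and were 3020 and 2523 in the Klk6 split.

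Among GABA nuclei without Isl1, receptors divided by transcription factor genes. In 238 nuclei with the transcription factor gene Gata3, Esr1 averaged 54.1 (45 to 64.8) CPM. In the 811 without it, Esr1 averaged 19.3 (16.8 to 22.6) CPM (1.43 ± 0.20, edgeR adjusted p = 5.5e-06, with 11.9% of genes passing). Nr3c2 averaged 376 (303 to 438) against 231 (205 to 250) CPM in the same split (0.66 ± 0.09, adjusted p = 2.7e-06). Pgr averaged 63.6 (53.2 to 75.7) CPM in 420 nuclei with the homeobox gene Meis2 and 29.5 (21 to 37.1) CPM in 629 without (1.14 ± 0.16, adjusted p = 3.6e-06; 12.5% of genes passed). In 121 nuclei with Lum, which encodes the matrix protein lumican, Pgr averaged 79.4 (57 to 102) CPM against 38.4 (31.1 to 43.7) CPM in the rest (1.12 ± 0.22, adjusted p = 1.2e-04; 16% of genes passed). In each of these splits the lowest library on the higher side was above the highest on the lower side. The share of all genes with such an order was not counted, so the order adds no support. Nuclei with Gata3 were deeper, with 9776 UMIs on average against 7908, and the part of depth in these differences was not tested.

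The other 9 calls did not hold under all 5 of those alternatives. In oligodendrocytes Nr3c2 was at 0.23 ± 0.07 by Opalin, -0.30 ± 0.08 by Hapln2, 0.49 ± 0.16 by Grm3 (23.2% of genes passed) and 0.30 ± 0.07 by Cdh19 (8.14%), and Esr2 was at -0.76 ± 0.17 by Grm3. In glutamate nuclei with Lmx1a, a transcription factor gene of the dopamine lineage, Esr1 was at 0.63 ± 0.18 and Pgr at 0.51 ± 0.15 (11.2% of genes passed). In GABA nuclei Esr1 was at 0.70 ± 0.23 by Meis2 and Nr3c2 at -0.54 ± 0.14 by Lum. No receptor passed in astrocytes by Gfap (1.83% of genes) or in glutamate nuclei by Foxb1 (8.44%), Sim1 (5.72%), C1ql1 (6.96%) or Th (3.9%).

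Among dopamine nuclei no split separated Pgr. By Calb1, a calcium-binding protein gene of part of the dopamine neurons, the log2 fold change was 0.33 ± 0.22 (edgeR adjusted p = 0.857; 0.341% of genes passed). By Sox6 it was -0.06 ± 0.28 (adjusted p = 0.985), by Aldh1a1 -0.15 ± 0.22 (adjusted p = 0.869) and by Slc17a6 -1.11 ± 0.37 (adjusted p = 0.147). The background was 1.26%, 5.26% and 1.82% of genes in those 3 splits, and the nuclei with Slc17a6 gave sums of 10 to 14 nuclei per library.

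**Figure D3:**
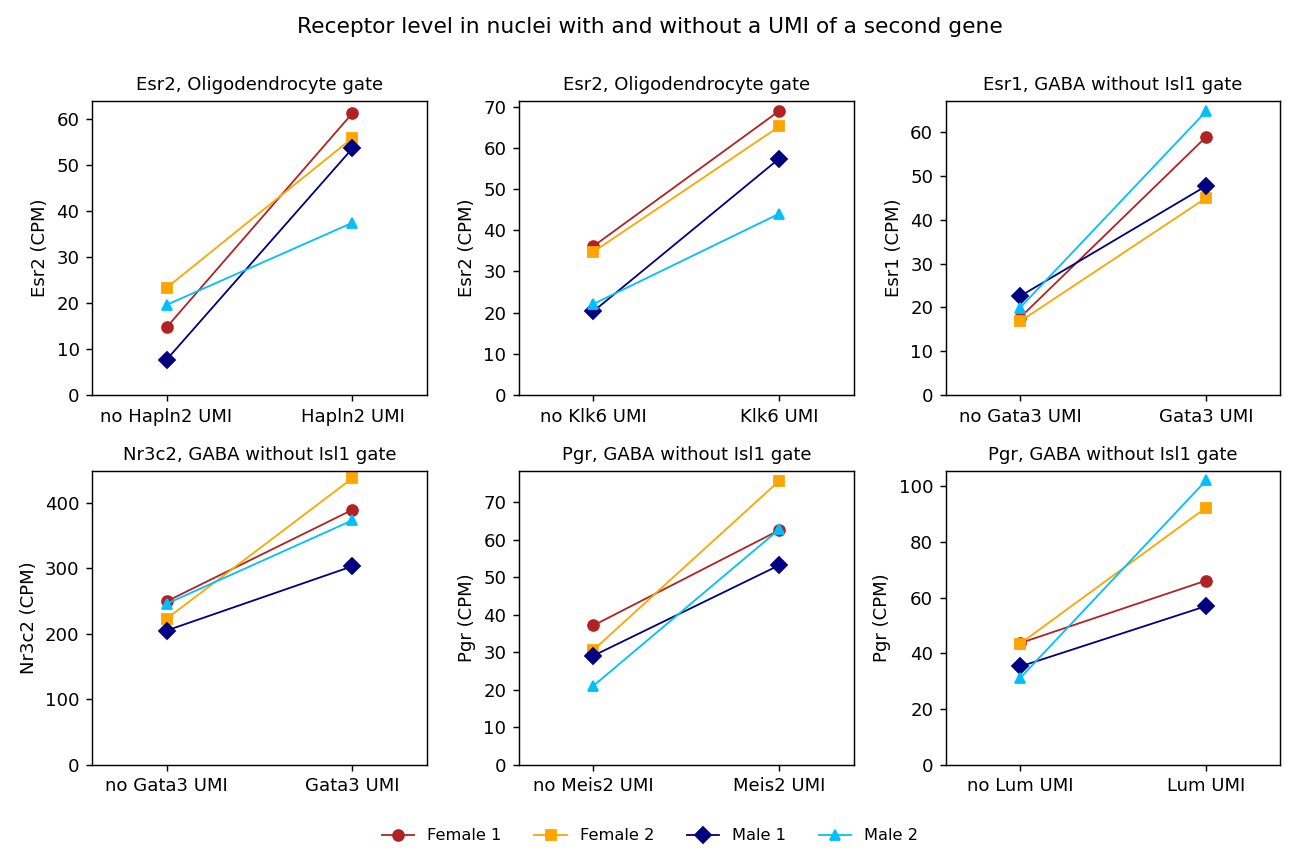
Receptor level (y axis, CPM from 0) in nuclei without (left) and with (right) a UMI of a second gene, with a line per library. In all 6 panels each of the 4 lines rises from left to right; the split of Esr2 by Opalin, which fell, is not drawn.

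Some nuclei held UMIs of more than 1 receptor gene. Of 289 dopamine nuclei, 120 held a Pgr UMI, 143 an Nr3c2 UMI and 61 both, so 50.8% of Pgr nuclei and 49.5% of all held Nr3c2. Esr1 was in 27 of them and Esr2 in 36, with 5 holding both. Among astrocytes 509 held Esr1, 86 Esr2 and 20 both, so 3.93% of Esr1 nuclei and 4.65% of all held Esr2. Nr3c2 was in 78.4% of Esr1 astrocytes and 73.2% of all astrocytes. Among GABA nuclei without Isl1, 150 held Esr1, 269 Pgr and 48 both, so 32.0% of Esr1 nuclei and 25.6% of all held Pgr. The nuclei with Esr1 had a median of 9618 UMIs there against 7485 in all, and these overlaps are given as descriptions with no test.

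Vessel cells lay outside the gates and were described after the data had been seen. In 53 ungated nuclei with the endothelial genes Flt1 and Cldn5, Esr1, Esr2 and Pgr had no UMI, where 3 UMIs would be 38.0 CPM. Nr3c2 had 41 UMIs there, at 278 to 607 CPM by library. In 69 ungated nuclei with the mural genes Pdgfrb and Rgs5, Nr3c2 had 36 UMIs and Esr1 had 2.

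Genes around the receptors came from 6 lists of 55 genes: coregulators, chaperones, other steroid receptors, steroid enzymes, glucocorticoid targets and estrogen targets. Each list's count is read beside the share of all genes that passed in that contrast, and nothing is called particular to a list. Between dopamine and GABA nuclei that share was 28.7%. Of 9 coregulators tested 0 were higher and 1 lower in dopamine nuclei (Nrip1, a corepressor, at -0.52 on the log2 scale), and of 9 chaperones 0 were higher and 3 lower (Fkbp4, a cochaperone of steroid receptors, at -0.93). Of 10 glucocorticoid targets 0 were higher and 3 lower (Zbtb16 at -1.43), and of 7 other receptors 0 were higher and 2 lower (the orphan receptor gene Esrrg at -1.61). Of 7 steroid enzymes 1 was higher and 1 lower (steroid sulfatase, Sts, at -1.14). The list medians were -0.02 for coregulators, -0.21 for chaperones, -0.08 for other receptors, -0.19 for enzymes and -0.38 for glucocorticoid targets, beside -0.03 over all genes. Greb1, a gene induced by estrogen in breast cells, was higher in dopamine nuclei by 3.99 ± 0.27 (edgeR adjusted p = 3.0e-17), with 105.4 CPM against 6.7 CPM in GABA nuclei. It was the 1 of 2 estrogen targets that passed.

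Against glutamate nuclei, where 22.6% of all genes passed, dopamine nuclei had 1 of 9 coregulators lower (Nrip1 at -0.82), 2 of 9 chaperones lower (Hsp90ab1 at -0.76) and 1 of 10 glucocorticoid targets lower (Zbtb16 at -1.53). Other receptors had 1 higher, the membrane progestin receptor gene Paqr8 at 1.20, and 2 lower, with Esrrg at -1.36. Greb1 was higher by 2.75. Against the Slc26a7 gate (14.2% of all genes passed) both estrogen targets tested were higher in dopamine nuclei, with Greb1 at 4.06, and 2 chaperones were lower, with Fkbp4 at -0.92. In the Isl1 gate against other GABA nuclei (8.64% of all genes passed), Greb1 was higher at 2.09 and Esrrg lower at -1.36, and no gene of the other 4 lists passed.

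Between neuron and glial gates 67.1% of all genes passed. Of 10 glucocorticoid targets tested 1 was higher and 9 were lower, with a median log2 fold change of -1.40 beside -0.03 over all genes. The higher one was Sgk1, a kinase gene also induced through Nr3c2, at 0.63, and Errfi1 was lowest at -2.05. Coregulators had 6 of 9 lower and none higher (Ncoa3 at -1.21), and steroid enzymes had 5 of 7 lower and none higher (Hsd11b1 at -2.13). Counting both directions, the shares of coregulators and steroid enzymes were near that of all genes, of which 4478 were higher and 4300 lower. All 10 glucocorticoid targets tested passed, a share above that of all genes. The list medians were -0.43 for coregulators and -0.99 for enzymes. Chaperones had 3 higher (Stub1 at 0.68) and 3 lower (Fkbp5 at -1.02). Among other receptors 3 of 7 were higher and 1 was lower (Paqr8 at -2.71). Both estrogen targets were higher, with the prolactin receptor gene Prlr at 6.01.

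Between astrocytes and oligodendrocytes 64.2% of all genes passed, and the listed genes moved in both directions. Hsd11b1, which turns inactive 11-keto steroids into active glucocorticoids, was higher in astrocytes by 6.21, with 164.8 CPM against 1.91 CPM. Hsd11b2, which inactivates corticosterone and so leaves Nr3c2 to aldosterone, had 24 UMIs in all nuclei. Of 7 steroid enzymes 2 were higher and 1 lower (Srd5a1, a 5-alpha reductase, at -3.25). Of 10 glucocorticoid targets 1 was higher (Klf9 at 0.74) and 5 lower (Sgk1 at -5.14). Of 9 chaperones 1 was higher and 7 lower (Fkbp4 at -1.73), of 9 coregulators 4 were higher (Ncoa1 at 1.53) and 1 lower (Ncoa2 at -0.34). All 7 other receptors passed, 5 higher (the membrane progestin receptor gene Paqr7 at 5.40) and 2 lower (Pgrmc2 at -0.70). Greb1 was higher by 5.36.

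The genes whose levels ran most alike with each receptor were named by Pearson's r of log2(CPM + 1) over 34 sums of gate and library, among 10297 genes. The sums share gates and libraries, so r is a description. Genes most like Esr1 included Atp1b2 (0.87), Slc6a11 (0.84), Mapk4 (0.83) and Man2a2 (0.82). Esr2 was most like Fntb (0.84), Ralgds (0.83), Kif1b (0.83), Ldb3 (0.82) and Fbxo15 (0.81). Pgr was most like AABR07011857.2 (0.97), Slco4c1 (0.96), Fgf9 (0.96), Rangap1 (0.95) and Il22ra2 (0.95). Nr3c2 was most like Adcy8 (0.90), Gpld1 (0.89), Ppargc1a (0.88), Asap2 (0.88) and Slc6a11 (0.87).

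In the RefSeq annotation of GRCr8, Ccdc170 neighbours Esr1 and Arhgap42 neighbours Pgr. Ccdc170, like Esr1, was highest in astrocytes, at 79.7 CPM. Arhgap42 stood at 388 CPM in precursors, where no Pgr UMI was found, and at 15.4 CPM in dopamine nuclei. Tex21, a neighbour of Esr2, stood at 2.26 CPM in oligodendrocytes. Arhgap10, a neighbour of Nr3c2, stood at 107 CPM in precursors and at 6.38 CPM in astrocytes.

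Female and male libraries were not separated for any receptor by the adjusted test. Over all nuclei Esr2 was at 20.1 and 24.6 CPM in the female libraries and at 17.0 and 14.0 CPM in the male ones. Its log2 fold change of female over male was 0.57 ± 0.18 (adjusted p = 0.902 from edgeR). Esr1 was 26.2 and 25.0 CPM in the female libraries and 30.0 and 31.8 CPM in the male libraries (-0.24 ± 0.13, adjusted p = 0.902). Pgr was at -0.07 ± 0.18 (adjusted p = 0.958) and Nr3c2 at 0.06 ± 0.15 (adjusted p = 0.959). With edgeR 0 of 4 receptors passed and 1 had an unadjusted p under 0.05, and DESeq2 gave the same counts, while 0.0312% of genes passed.

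Within gates 21 tests of sex were made in 8 gates with edgeR and 0 passed. The share of all genes that passed was 0.0681% in dopamine nuclei, 0.134% in the Slc26a7 gate, 0.0864% in GABA nuclei, 0.0556% in glutamate nuclei, 0.0514% in oligodendrocytes, 0.125% in precursors, 0.098% in astrocytes and 0.0871% in microglia. Unadjusted p was under 0.05 in 3 of them. Esr2 was higher in female oligodendrocytes by 0.44 ± 0.17 (edgeR adjusted p = 0.525) and in female astrocytes by 0.89 ± 0.34 (adjusted p = 1.00), and Nr3c2 in female precursors by 0.49 ± 0.15 (adjusted p = 0.533). In each of these gates both female libraries were above both male libraries, but the gates were picked by unadjusted p. The share of all genes with such an order was not counted, so the order adds no support. DESeq2 passed 0 of 20 with 1 at an unadjusted p under 0.05. Whether a difference between gates differed by sex was tested in 17 interactions added after the data had been seen, and 0 passed with edgeR. The lowest was Nr3c2 in neurons against glia (-0.34 ± 0.15, unadjusted p = 0.0297, adjusted p = 0.884). On simulated counts of genes with at least 200 UMIs, the sex test recovered 89.6% of genes changed by 1 on the log2 scale over all nuclei and 69.5% in astrocytes. The differences named here were smaller than that change. The simulated spread (dispersion) was set at 0.02 for every gene and was not estimated from these data. Esr2 had 109 UMIs in astrocytes, so the recovered share there does not apply to it.

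**Figure D4:**
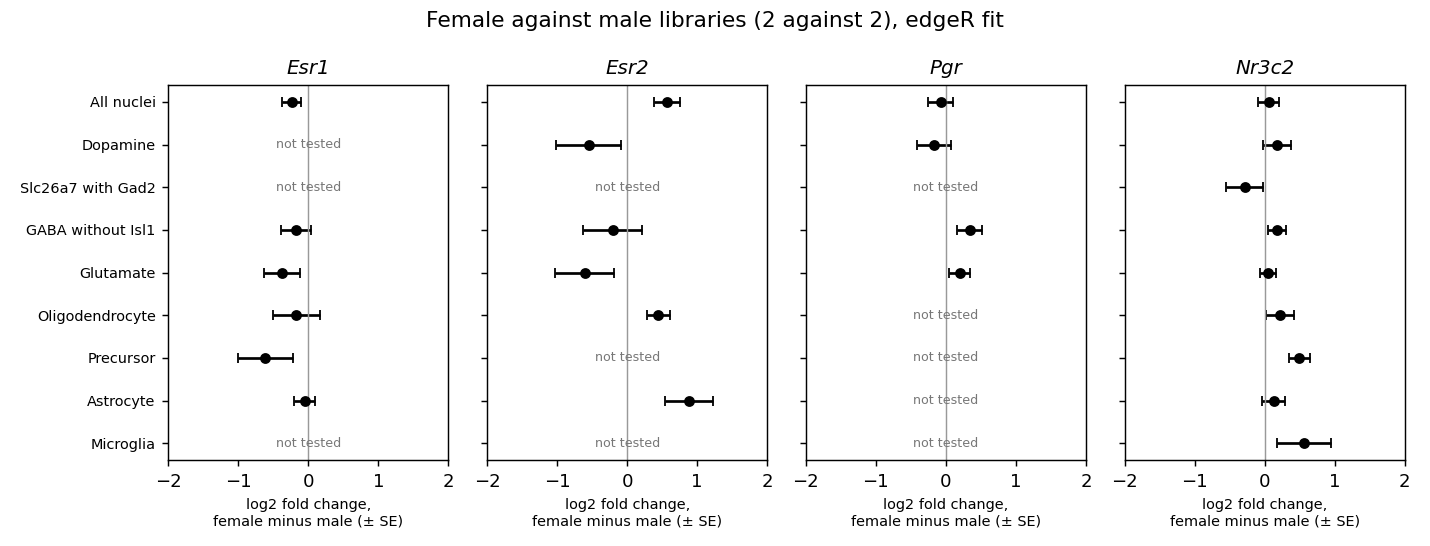
Log2 fold change of female over male libraries (x axis, point with SE bar) for each receptor over all nuclei and in each gate (y axis); gates in which a gene had too few UMIs are marked as not tested. No point passed the adjusted test, and the points of Esr2 lie right of 0 in oligodendrocytes and astrocytes and left of 0 in the 3 neuron gates tested.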

How the data were processed

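The authors deposited raw UMI counts per gene and barcode, per the file headers, for 4 libraries. Software version 3.0.2 stands in the headers, and the submitters' processing notes name Cell Ranger and the build rn6. No annotation is named. From these counts, doublets were scored per library with Scrublet (scanpy 1.11.5) and the top 0.8% per 1000 barcodes removed (980 of 21606 barcodes, 4.54%). Nuclei under 200 genes or over 5% mitochondrial UMIs (6 barcodes) were also removed. No correction for free RNA is recorded. A nucleus in both the glutamate gate and the dopamine or Slc26a7 gate was counted in the latter, and 153 nuclei in other overlaps were left out.

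UMIs were summed per gate and library (at least 10 nuclei) and tested with edgeR 4.0.16 (quasi-likelihood, TMM, filterByExpr) in R 4.3.3, with library as a block between gates and none between sexes. P-values were adjusted by Benjamini-Hochberg over all genes tested, and a result passed under 0.05. SE was taken as the absolute log2 fold change divided by F's square root. Intervals and floors (3 UMIs) cover counting error only. The members and lists were chosen with earlier results of these data known. List genes were named by the largest called change in each direction among those averaging 10 CPM or more, and like genes as the 5 highest r. Some genes that this rule names are not reported here. Greb1 levels, the neighbours and Hsd11b2 are outside that rule and were chosen after their values were seen. Alternatives were DESeq2 1.42.0, its size factors, filters, gates, doublets, overlaps and left-out libraries. On simulated data, the dopamine against GABA test recovered 93.4% of genes changed by 1 on the log2 scale, with 6.73% false calls, among genes with at least 200 UMIs. The simulated dispersion was set at 0.02 and not estimated from these data. Esr2, with 48 UMIs in dopamine nuclei and 80 in GABA nuclei without Isl1, was below that count.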

Additional observations from a re-analysis of the deposited data

Results flagged for a closer look

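In 6 of 30 groups of 4 libraries, 1 library lay apart from the other 3 by Dixon's criterion. Chance meets it in about 5% of groups of normally distributed values. That share does not apply to groups of a few UMIs, such as Esr2 in precursors and Pgr in microglia. For Esr1 in glutamate nuclei it was Female 1, the lowest at 14.1 CPM. For Esr2 in precursors it was Male 1, the lowest at 0 CPM, in a gate with 3 Esr2 UMIs in all. For Pgr in dopamine nuclei it was Female 1, the lowest at 59.0 CPM, still above all libraries of GABA nuclei without Isl1. For Pgr in microglia it was Female 1, the highest at 6.06 CPM, where the other 3 libraries had 0. For Nr3c2 in dopamine nuclei it was Female 2, the highest at 128.3 CPM, and in GABA nuclei without Isl1 it was Male 1, the lowest at 230.5 CPM. No single library lay apart in all of them: Female 1 did in 3 groups, Male 1 in 2 and Female 2 in 1.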

How the results depend on the processing

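In dopamine against GABA and against glutamate nuclei, 4 receptors passed under every alternative tried except those that left out a library, which gave 3 to 4. In astrocytes against oligodendrocytes, 3 passed under each. Against the Slc26a7 gate, 1 receptor instead of 2 passed with DESeq2, with its size factors in edgeR, with no replicate block, with doublets kept, with overlaps kept and with each library left out (range 1 to 1). In the Isl1 contrast, 2 became 0 with DESeq2 and with stricter gates, 1 with no replicate block and with overlaps kept, 3 with no filter on low counts, and 1 to 2 over the left-out libraries, with log2 fold changes of -8.68 (without Male 1) to 1.33 for Esr1 and -9.17 (without Male 1) to 1.30 for Pgr. In neurons against glia, 2 became 1 with DESeq2, with looser gates, with overlaps kept and with both the Isl1 gate and Male 1 left out, and 0 to 2 over the left-out libraries. Esr1 there was -1.83 (without Male 1) to 0.34 over left-out libraries, and turned to -0.0901 with doublets kept, -0.0878 with overlaps kept, -0.0373 with stricter gates, -0.29 without the Isl1 gate and -0.22 without it and Male 1. Nr3c2 was -0.32 (without Male 1) to 0.21. Pgr in astrocytes against oligodendrocytes was -0.67 to 0.15 over left-out libraries and 0.15 with stricter gates. Between sexes, Pgr was -0.26 to 0.13 and Nr3c2 -0.13 to 0.27, and Pgr in the Sox6 split was -0.39 to 0.13. The causes were not tested. Without Male 1 the Isl1 gate held 10 nuclei of Male 2 with no Esr1 or Pgr UMI, so the values of -8.68 and -9.17 are no bounds. The replicate numbers share no stated origin across sexes (correlation of Female 1 minus Female 2 with Male 1 minus Male 2 over 16037 genes, 0.34). With the replicate number as a block, 0 receptors passed between sexes over all nuclei and 1 pair within gates, Nr3c2 in precursors (0.50, edgeR adjusted p = 0.041). Low counts limit Esr2 in precursors and microglia and Pgr in glia.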
